A study of Danio rerio with 6 samples.

Results

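The bone morphogenetic protein (BMP) pathway was followed through 43 of its genes in cells sorted from *drl:EGFP* zebrafish embryos. A list of 49 genes was drawn up by role, and a gene counted as a member where the files carry exactly its symbol, which held for 43 of the 25965 genes with a symbol. Of the other 6, 5 are listed under an older symbol (*chrd* as chd, *msx1a* as msxe, *msx1b* as msxb, *msx2b* as msxd and *msx3* as msxc) and are given apart from the members, while no row was found for *smad6b*. The members are 9 ligands, 2 proteases, 11 extracellular antagonists and modulators, 6 receptors, 6 Smads and 9 target genes.

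EGFP-positive and EGFP-negative fractions were sorted from dissociated embryos at the 2 somite stage, all of which carried the transgene. In these homozygous *drl:EGFP* fish, EGFP is driven by a regulatory element of *draculin* (*drl*), which marks the lateral plate mesoderm, the source of heart, blood, vessels, kidney and fin mesenchyme. One family of fish was mass-mated on 3 independent occasions, the embryos were pooled each time, and cells that took up propidium iodide were left out of both fractions. RNA of 3 EGFP-positive and 3 EGFP-negative samples was read on one-colour Affymetrix arrays, and each value is a log2 signal of a transcript cluster, a set of probes that corresponds to a gene or a part of one. The EGFP-negative fraction is everything else in the embryo and no single tissue.

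BMPs are secreted ligands that work as gradients. In the fish gastrula they are made ventrally and held down dorsally by secreted antagonists such as Chordin and Noggin. The proteases Bmp1a and Tolloid release the ligands again by cutting Chordin. A bound ligand brings type I and type II receptors together, the receptors phosphorylate Smad1, Smad5 and Smad9, and these enter the nucleus with Smad4. Among the genes that respond are the *id* genes, the ventral homeobox genes *vox*, *vent* and *ved*, *eve1*, the *msx* genes, and the pathway's own inhibitors *smad6* and *smad7*. High BMP activity is known to favour ventral and lateral mesoderm over axial mesoderm, and epidermis over neural plate.

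Array medians ran from 5.02 to 5.10, and Pearson's r across clusters, which are not independent replicates, was 0.988 to 0.991 within a fraction and 0.978 to 0.987 between fractions. The first principal component held 45.39% of the variance and separated the fractions, and the second (17.46%) set EGFP-positive replicate 2 apart from EGFP-positive replicates 1 and 3. Markers of the lateral plate, 8 of 8, were past the threshold and higher in EGFP-positive cells, with a summed linear signal of 7987 to 11096 on EGFP-positive arrays and 547 to 897 on EGFP-negative arrays. So were 3 of 3 endoderm markers, with 3852 to 4816 on EGFP-positive and 415 to 696 on EGFP-negative arrays, and 5 of 5 markers of hatching gland and prechordal plate, with 7515 to 8394 on EGFP-positive and 2169 to 2775 on EGFP-negative arrays. The last of these sums mainly follows *ctslb*, with mean log2 signals of 12.70 on EGFP-positive and 10.99 on EGFP-negative arrays. *he1.1* and *he1.2* of the same list averaged 4.03 and 4.19 over all arrays, below the median of all values (5.07). The part of endoderm, hatching gland and prechordal plate in the values of the pathway genes was not tested. Of 10 markers of epidermis and non-neural ectoderm 9 were lower, as were 8 of 10 of the neural plate, with 2734 to 3114 on EGFP-positive and 7703 to 8920 on EGFP-negative arrays. Fewer cells of a type and less RNA per cell cannot be told apart in such bulk samples.

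Of the 43 members, 9 were higher and 5 were lower in EGFP-positive cells at a Benjamini-Hochberg adjusted p under 0.09 in limma, fitted over all 75212 clusters. By the same rule 4.12% of all genes were higher and 3.49% lower (7.61% either way), so the 20.9% and 11.6% of members lie above both shares. The members are well expressed as a group, with 40 of 43 above the median signal of 5.07, and 14 of these 40 were called (35%), where among all genes above that signal 5.9% were higher and 4.8% lower, 10.7% in all. The higher genes were *fsta*, *bmp6*, *bmper*, *id3*, *smad9*, *nog1*, *smad7*, *eve1* and *vox*. The lower genes were *bmpr1ba*, *bmp1a*, *tll1*, *admp* and *bmp7a*. The values of these genes on each array are plotted together with those of 4 called genes under an older symbol.

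**Figure D1:**
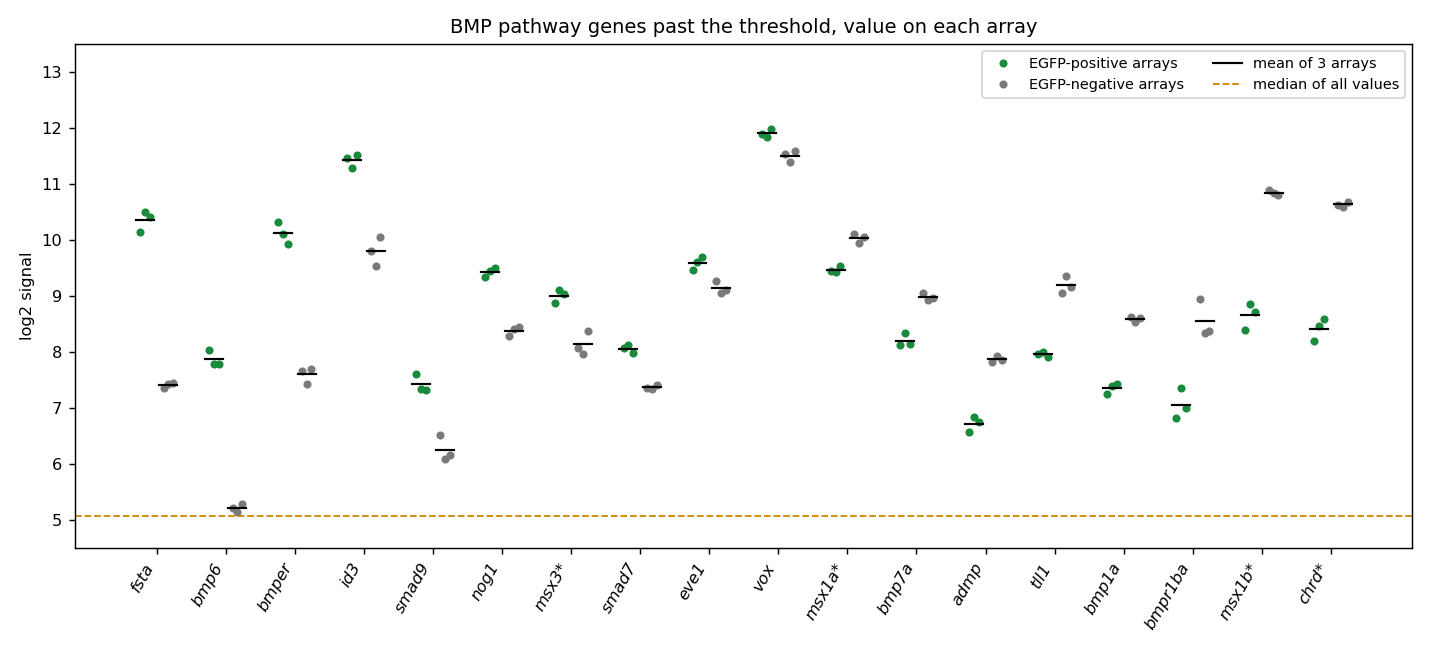
Log2 signal (y axis) of the BMP pathway genes past the threshold, in order of their log2 difference, with EGFP-positive arrays in green left of EGFP-negative arrays in grey, bars for means of 3 arrays and an asterisk for genes listed under an older symbol. The 2 fractions do not overlap for any of the 18 genes, which were picked by the test on these same values, so this is no separate support. The EGFP-negative values of *bmp6* (5.13 to 5.28) lie next to the dashed median of all values at 5.07.

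Roles differed in their medians, and most of them held genes of both signs. The median log2 difference, EGFP-positive minus EGFP-negative, was -0.46 for the ligands and -1.24 for the proteases, 0.05 for the antagonists and modulators, 0.09 for the receptors, 0.28 for the Smads and 0.31 for the targets, while it was 0.05 over all members and 0.02 over all clusters. Of the ligands 7 of 9 had a negative difference, and of the Smads 6 of 6 had a positive one. The targets were split, with 5 positive and 4 negative differences. Among the receptors 4 were positive and 2 negative, and among the antagonists and modulators 9 were positive and 2 negative. Among all 25965 genes 12701 differences were positive and 13264 negative. The intervals of *smad1*, *smad4* and *smad6a* included 0. No member among the antagonists, Smads or targets passed the test as lower, although *chrd*, *msx1a* and *msx1b* did so under their older symbols. These medians describe the lists and were not tested.

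**Figure D2:**
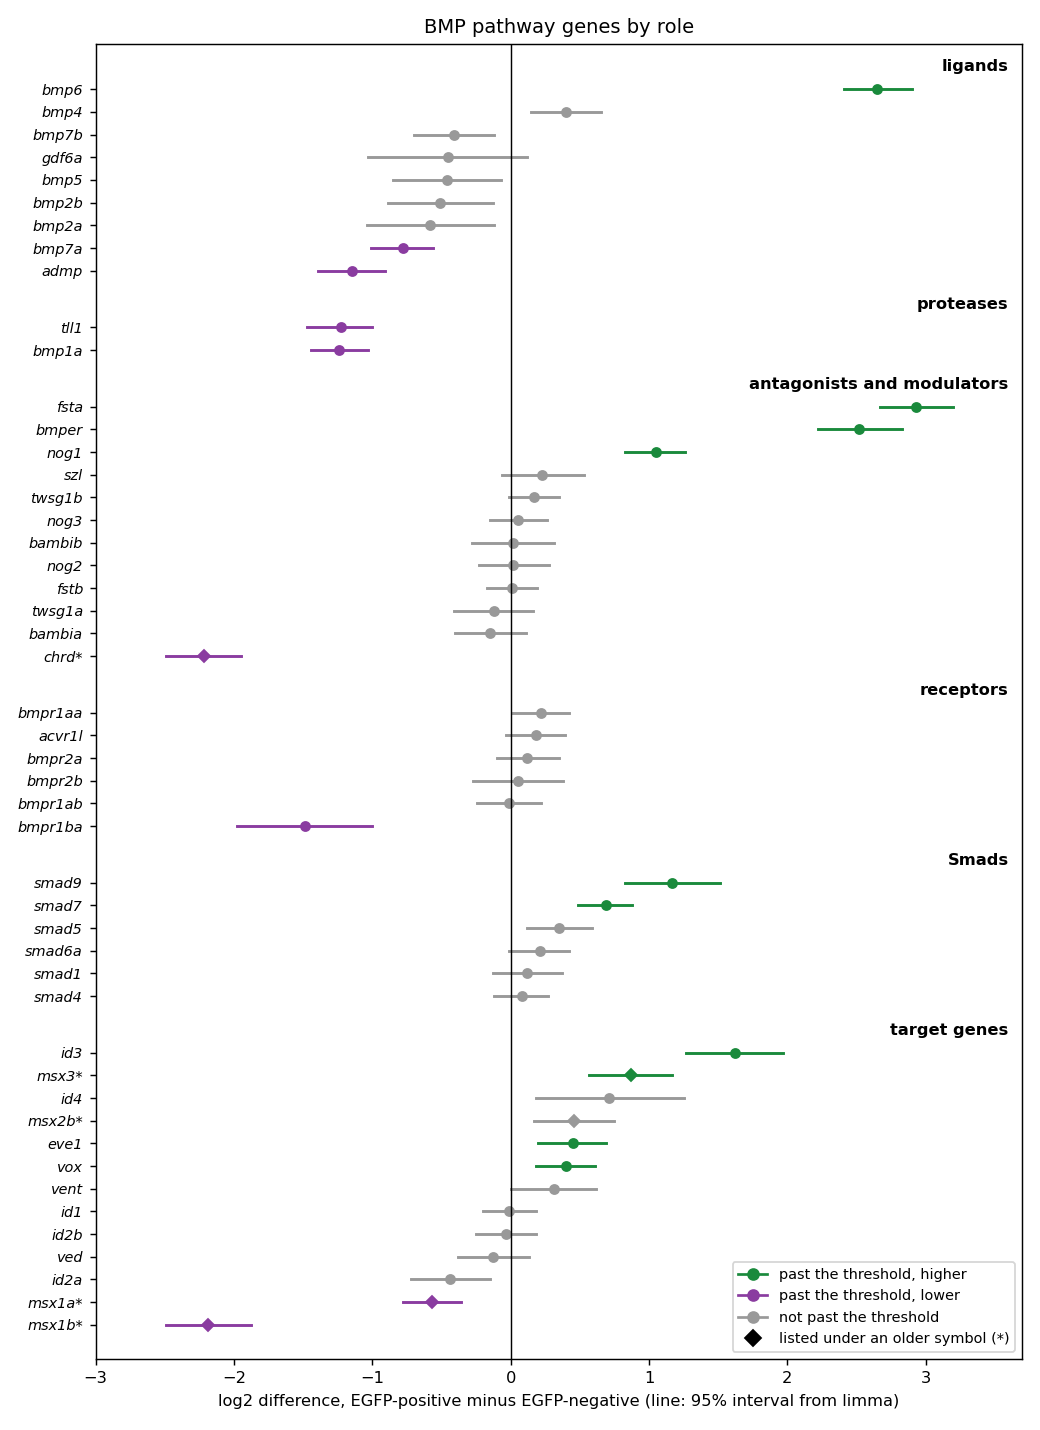
Log2 difference of each gene (x axis, EGFP-positive minus EGFP-negative) by role, with the 95% interval of the limma fit as a line colour for the call and diamonds with an asterisk for genes listed under an older symbol. *fsta*, *bmp6* and *bmper* stand at 2.52 to 2.93 on the right, and *chrd* and *msx1b* stand at -2.22 and -2.19 on the left.

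Among the ligands, *bmp6* was the single one past the threshold as higher, at 6.30-fold. Its signal was 8.03, 7.79 and 7.78 on the EGFP-positive arrays and 5.21, 5.13 and 5.28 on the EGFP-negative arrays. The gene, whose mammalian counterpart regulates iron and bone formation, lies at chr24:7974762-8049198 of Zv9, plus strand. The log2 difference was 2.65 (SE 0.10, limma adjusted p = 0.000149). All 3 EGFP-negative values lie near the median of all values, where the arrays give no detection call, so the size of the ratio is approximate.

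The ligands of the early ventral gradient did not pass as higher in the fit over all clusters. *bmp7a*, the partner of Bmp2b in the active heterodimer, had 8.12, 8.34 and 8.14 in EGFP-positive cells and 9.05, 8.93 and 8.96 in EGFP-negative cells. This was a fall by 0.78 (SE 0.09, limma adjusted p = 0.0062), and by 0.44 (limma adjusted p = 0.0483) with the mean of both its clusters. The second cluster lies on the opposite strand, with signals below the median of all values. It averaged 3.40 on EGFP-positive arrays and 3.51 on EGFP-negative arrays. *bmp2b* had 8.07, 8.42 and 8.48 in EGFP-positive cells and 8.58, 8.84 and 9.07 in EGFP-negative cells. Here every EGFP-positive array lay below every EGFP-negative one, yet the difference of -0.51 did not pass (limma adjusted p = 0.195, interval -0.89 to -0.13). With the replicate number as a block *bmp2b* passed as lower, but the labels do not say which number belongs to which mating. *bmp4* ran the other way without overlap, at 8.59, 8.64 and 8.66 in EGFP-positive cells and 8.31, 8.03 and 8.34 in EGFP-negative cells. The *bmp4* difference of 0.40, of the same sign as that of *bmp6*, did not pass over all clusters (limma adjusted p = 0.122, interval 0.15 to 0.65).

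*admp*, a BMP-like ligand of the dorsal organizer, was 2.22-fold lower, with 6.56, 6.84 and 6.75 in EGFP-positive cells and 7.82, 7.93 and 7.86 in EGFP-negative cells (limma adjusted p = 0.00162). Its cluster lies at chr2:54071703-54087723 of Zv9, minus strand. For the other ligands the log2 difference was -0.58 for *bmp2a*, -0.46 for *bmp5*, -0.45 for *gdf6a*, which acts in the dorsal ectoderm and eye, and -0.41 for *bmp7b*. None passed, though *bmp2a* did so as lower with the replicate number as a block. The fractions did not overlap for *bmp2a*, *bmp5* and *bmp7b*. *bmp2a* and *gdf6a* were highest on replicate 1 within each fraction, at 6.83 and 7.31 in EGFP-positive cells and 7.50 and 7.74 in EGFP-negative cells.

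Both proteases among the members, which cleave Chordin, were lower in EGFP-positive cells. *bmp1a* had 7.24, 7.39 and 7.43 in EGFP-positive cells and 8.63, 8.54 and 8.60 in EGFP-negative cells, a 2.36-fold lower level (SE of the log2 difference 0.09, limma adjusted p = 0.00071). *tll1*, the tolloid gene that is mutated in *mini fin* fish, had 7.97, 7.99 and 7.90 in EGFP-positive cells and 9.06, 9.35 and 9.16 in EGFP-negative cells, 2.35-fold lower (SE 0.10, limma adjusted p = 0.00123). Neither gene had overlapping fractions. *szl*, which encodes the secreted inhibitor of these proteases, had 10.25, 10.62 and 10.50 in EGFP-positive cells and 10.31, 10.29 and 10.07 in EGFP-negative cells. The fractions of *szl* overlapped, and its difference of 0.23 did not pass (limma adjusted p = 0.463, interval -0.06 to 0.53). Outside the members, the related gene *bmp1b* differed by -0.09 with overlapping fractions and did not pass (limma adjusted p = 0.76). No row was found for *tll2*.

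The antagonists split. *fsta*, a follistatin that binds activins and BMPs, gave the largest difference among the members, with 10.14, 10.49 and 10.41 in EGFP-positive cells and 7.36, 7.43 and 7.45 in EGFP-negative cells. This was 7.65-fold higher (log2 difference 2.93, SE 0.11, limma adjusted p = 0.000148), and its cluster lies at chr5:42130049-42135527 of Zv9, minus strand. *bmper*, the crossveinless-2 gene, whose secreted product binds BMPs and can act for or against them, followed at 5.75-fold. It had 10.32, 10.11 and 9.93 in EGFP-positive cells and 7.66, 7.43 and 7.70 in EGFP-negative cells (log2 difference 2.52, SE 0.13, limma adjusted p = 0.000241). The cluster of *bmper* lies at chr16:9251505-9291853 of Zv9, minus strand.

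The noggin gene *nog1* was higher as well, with 9.33, 9.45 and 9.49 in EGFP-positive cells and 8.28, 8.40 and 8.45 in EGFP-negative cells. By this cluster, which has no chromosome, it was 2.07-fold higher (limma adjusted p = 0.00158). A second cluster, at chr3:10693519-10695681 of Zv9, minus strand, gave a larger log2 difference of 1.53 (limma adjusted p = 0.000991). Its relatives *nog2* and *nog3* differed by 0.02 and 0.05, with signals of 5.53 to 6.12 over both fractions, close to the median of all values.

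In all, 8 antagonists and modulators did not pass, with log2 differences of -0.15 to 0.23. They are *szl*, *nog2*, *nog3*, *fstb*, *twsg1a* and *twsg1b* (secreted partners of Chordin), and *bambia* and *bambib* (membrane proteins that resemble receptors without a kinase). *twsg1b* lay without overlap at 10.93, 10.99 and 10.97 in EGFP-positive cells and 10.83, 10.75 and 10.79 in EGFP-negative cells, a difference of 0.17. *chrd* itself, listed as chd, was 4.66-fold lower, with 8.20, 8.46 and 8.59 in EGFP-positive cells and 10.63, 10.59 and 10.68 in EGFP-negative cells (limma adjusted p = 0.000255). Chordin is made by axial mesoderm, and of 6 markers of that tissue 3 were lower, with a summed signal of 2427 to 2801 on EGFP-positive arrays and 3498 to 3711 on EGFP-negative arrays. The other 3 did not pass, and *col2a1a* among them was higher without overlap (difference 0.84, limma adjusted p = 0.103). The part of axial mesoderm in the value of *chrd* was not tested.

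One receptor passed the test. *bmpr1ba*, a type I receptor, had 6.82, 7.36 and 6.99 in EGFP-positive cells and 8.95, 8.33 and 8.38 in EGFP-negative cells. It was 2.81-fold lower (log2 difference -1.49, SE 0.21, limma adjusted p = 0.011), at chr5:8817814-8842844 of Zv9, minus strand. The type I receptors *bmpr1aa* and *bmpr1ab* differed by 0.22 and -0.01, with intervals of 0.02 to 0.42 and -0.24 to 0.22. *bmpr1aa* had 10.83, 10.93 and 10.80 in EGFP-positive cells and 10.72, 10.59 and 10.59 in EGFP-negative cells. *acvr1l*, the type I receptor altered in *lost-a-fin* fish, differed by 0.18, and the type II receptors *bmpr2a* and *bmpr2b* by 0.12 and 0.05. For these 5 genes the interval lay within 1.5-fold either way.

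Of the Smads, *smad9* and *smad7* were higher. *smad9*, a receptor-activated Smad also known as Smad8, had 7.61, 7.34 and 7.31 in EGFP-positive cells and 6.51, 6.08 and 6.15 in EGFP-negative cells. It was 2.25-fold higher (log2 difference 1.17, SE 0.14, limma adjusted p = 0.00626), by a cluster at chr10:35985042-36004657 of Zv9, minus strand. A dimmer cluster on the opposite strand, averaging 5.07 on EGFP-positive arrays and 4.95 on EGFP-negative arrays, differed by 0.12, and the mean of both clusters differed by 0.65 (limma adjusted p = 0.0145). *smad7*, an inhibitory Smad that blocks the receptors, had 8.06, 8.12 and 7.98 in EGFP-positive cells and 7.35, 7.34 and 7.41 in EGFP-negative cells, 1.61-fold higher (SE of the log2 difference 0.08, limma adjusted p = 0.00567).

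The other Smads lay on the same side of zero with smaller values. *smad5*, a main transducer of the early embryo, had 10.32, 10.44 and 10.35 in EGFP-positive cells and 10.17, 10.00 and 9.88 in EGFP-negative cells. Its fractions did not overlap, and its difference of 0.35 did not pass (limma adjusted p = 0.147). *smad6a*, the second inhibitory Smad, differed by 0.21 without overlap, *smad1* by 0.12 and the common partner *smad4* by 0.08. For *smad4* the interval ran from -0.12 to 0.27.

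Among the targets *id3* was 3.08-fold higher, while no difference was detectable for *id1*, and both encode inhibitors of basic helix-loop-helix factors that BMP signals induce. *id3* had 11.47, 11.28 and 11.51 in EGFP-positive cells and 9.80, 9.53 and 10.06 in EGFP-negative cells (log2 difference 1.62, SE 0.15, limma adjusted p = 0.00185). Its cluster lies at chr17:27113089-27115006 of Zv9, minus strand. *id1* had 11.74, 11.73 and 11.81 in EGFP-positive cells and 11.73, 11.76 and 11.84 in EGFP-negative cells. This is a difference of -0.01 with an interval of -0.20 to 0.18. *id2a* had 9.30, 9.33 and 9.38 in EGFP-positive cells and 9.93, 9.54 and 9.86 in EGFP-negative cells. By this cluster, which has no chromosome, *id2a* lay lower without overlap and did not pass (difference -0.44, limma adjusted p = 0.132). A dimmer cluster at chr17:34973027-34975295 of Zv9, plus strand, differed by -0.21 with overlapping fractions (limma adjusted p = 0.44). *id2b* and *id4* had low signals, and *id4* differed by 0.71 with a wide spread (5.76, 4.87 and 5.23 in EGFP-positive cells, 4.63, 4.35 and 4.75 in EGFP-negative cells, limma adjusted p = 0.197).

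The ventral homeobox genes differed by small amounts. *vox* had 11.89, 11.84 and 11.98 in EGFP-positive cells and 11.53, 11.39 and 11.59 in EGFP-negative cells, 1.32-fold higher (limma adjusted p = 0.0769). *eve1*, a gene of the ventral and posterior embryo, had 9.46, 9.60 and 9.70 in EGFP-positive cells and 9.27, 9.05 and 9.10 in EGFP-negative cells, 1.36-fold higher (limma adjusted p = 0.0801). Both calls sit next to the threshold and both were lost without any 1 of the EGFP-positive arrays or without EGFP-negative replicate 2 or 3, while without EGFP-negative replicate 1 only that of *vox* was lost (adjusted p up to 0.201 for *vox* and 0.23 for *eve1*). *vent*, the neighbour of *vox* 7575 bases away on chromosome 13 of Zv9, had 9.69, 9.95 and 9.88 in EGFP-positive cells and 9.77, 9.48 and 9.35 in EGFP-negative cells, with overlap and a difference of 0.31. *ved* differed by -0.13. These genes are also active in the tail bud at this stage. Of 7 markers of tail bud and presomitic mesoderm 1 was called lower and 0 were called higher. Their summed signals were 9797 to 11325 on EGFP-positive arrays and 9180 to 11390 on EGFP-negative arrays. Without overlap 2 of the 7 lay higher and 2 lower. The higher ones, *wnt8a* (difference 0.49, limma adjusted p = 0.129) and *her1* (0.41, limma adjusted p = 0.259), did not pass. The part of the tail bud in the values of the ventral genes was not tested.

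The *msx* genes, listed under older symbols, went both ways. *msx1b* had 8.39, 8.86 and 8.72 in EGFP-positive cells and 10.89, 10.84 and 10.80 in EGFP-negative cells (log2 difference -2.19, SE 0.13, limma adjusted p = 0.000364). *msx1a* had 9.44, 9.42 and 9.54 in EGFP-positive cells and 10.11, 9.95 and 10.06 in EGFP-negative cells (difference -0.57, limma adjusted p = 0.0166). *msx3* was higher instead, with 8.88, 9.10 and 9.03 in EGFP-positive cells and 8.06, 7.97 and 8.37 in EGFP-negative cells (difference 0.87, limma adjusted p = 0.014), and *msx2b* differed by 0.46 without a call. The *msx* genes are known from the neural plate border, where BMP levels are intermediate. Of 5 neural crest markers 2 were lower, with a summed signal of 950 to 1073 on EGFP-positive arrays and 1814 to 2253 on EGFP-negative arrays, and of 10 ectoderm markers 9 were lower, with 4252 to 5423 on EGFP-positive arrays and 15770 to 16626 on EGFP-negative arrays. Their part in the values of *msx1a* and *msx1b* was not tested.

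The a and b copies of duplicated genes could be compared only by description. For 9 pairs, the log2 signal of the b copy was subtracted from that of the a copy on each array, and an exact two-sided permutation test of the shift between fractions cannot go below p = 0.1 with 3 arrays a fraction, so no pair could pass. The shift, EGFP-positive minus EGFP-negative, was 2.93 for *fst*, 1.62 for *msx1*, -0.37 for *bmp7*, -0.29 for *twsg1* and 0.23 for *bmpr1a*, and in these 5 pairs the fractions did not overlap (exact p = 0.1 each, 0.18 adjusted over the 9 pairs). It was -0.40 for *id2*, -0.16 for *bambi*, -0.07 for *bmp2* and 0.07 for *bmpr2*, where the fractions overlapped (exact p = 0.2 to 0.7). *fstb* had 4.75, 4.79 and 4.77 in EGFP-positive cells and 4.79, 4.76 and 4.73 in EGFP-negative cells, all below the median of all values, so the *fst* shift is that of *fsta* against a copy with no clear signal.

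How a gene was measured bears on some of these values. Of the members, 29 have 1 transcript cluster and 14 have several, and the one with the highest mean stands for the gene. The 23 further clusters had the same sign as the brightest one in 21 cases, and the exceptions are the 2 further clusters of *nog3*. The 5 clusters of *ved* hold only 3 distinct sets of values, so part of this agreement was fixed in advance. Of the 23 further clusters 10, of 8 genes, lie at the same locus on the opposite strand. Of these 10, 0 passed the test (4.8% of all clusters did), those of *bmp7a* and *smad9* included, whose brightest clusters did.

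**Figure D3:**
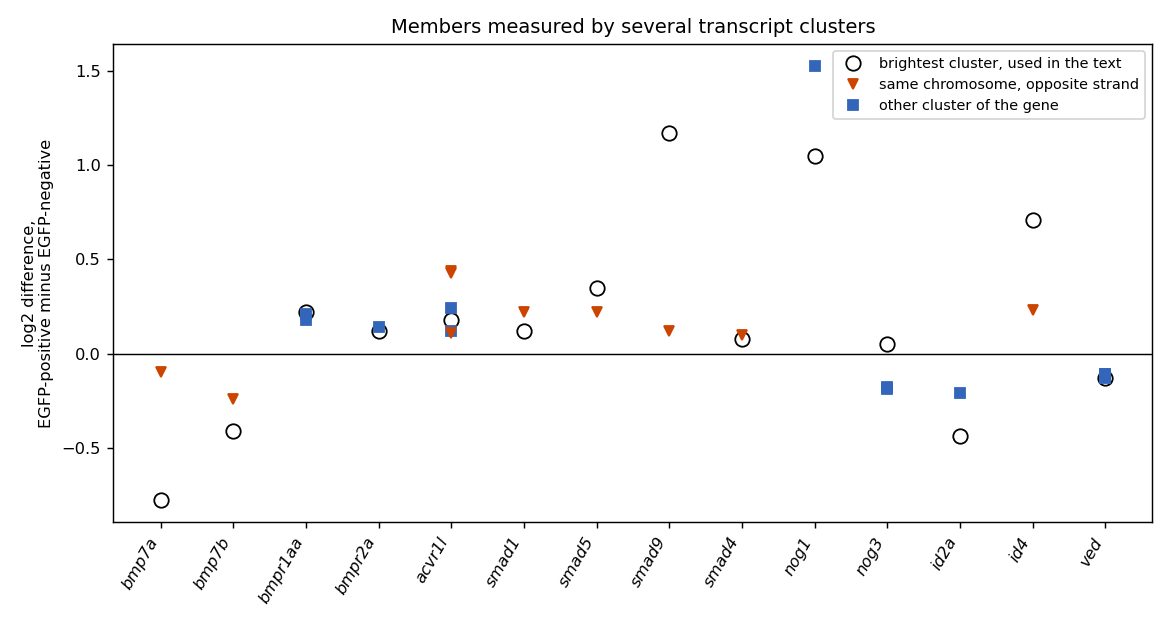
Log2 difference (y axis, EGFP-positive minus EGFP-negative) of every transcript cluster of the 14 members with several, with an open circle for the brightest cluster and triangles for clusters on the opposite strand. The clusters of *nog1* lie at 1.05 and 1.53, and the opposite-strand clusters of *smad9* and *bmp7a* lie at 0.12 and -0.10, far from their brightest clusters at 1.17 and -0.78.

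The fractions did not overlap for 16 members that were higher and 10 that were lower, where the shares over all genes were 12.9% and 12.6%. Of the 29 members that did not pass, 7 of the higher and 5 of the lower ones were without overlap. The shares above include called genes. Of all genes 3337 lay higher and 3270 lower without overlap, while 1071 were called higher, 905 were called lower and 23989 were not called. No share was taken over the genes that did not pass alone, so the counts of 7 and 5 have no exact baseline. An unadjusted 95% interval excluded 0 for 9 of the 29 (31%), and among all genes that did not pass this held for 11.8%. For 19 of the 29 the interval lay within a 1.5-fold change either way, *id1*, *smad1*, *smad4*, *bambia* and *bambib* among them. The SD of the members within a fraction had a median of 0.12 over EGFP-positive arrays and 0.11 over EGFP-negative arrays, and the widest were those of *id4* in EGFP-positive cells (0.45) and of *gdf6a* in EGFP-negative cells (0.36).

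A further list of 45 pathway genes outside the members, of which 37 were found, gave 4 higher, 5 lower and a median log2 difference of 0.00. Either way 24.3% of the 37 were called, against 7.61% of all genes and 10.7% of genes above the median signal. Of the 37, 33 lay above that signal, and the gap between these shares was not tested. Higher were the follistatin-like genes *fstl1a* (difference 1.70) and *fstl1b* (1.32), *tbx3a* (0.91) and *gdf3* (0.85, listed as dvr1), a maternal ligand of the Nodal branch. Lower were *bmpr1bb* (difference -1.23), the second copy of the receptor gene *bmpr1ba*, then *gdf11* (-1.22) and the ectodermal target genes *foxi1* (-2.54), *gata3* (-2.35) and *gata2a* (-0.99). *foxi1* and *gata3* are also on the list of ectoderm markers. The type II receptor genes *acvr2aa*, *acvr2ab* and *acvr2ba* differed by 0.23, 0.19 and 0.13, and *smurf1*, an enzyme that removes Smads, by 0.36, and none of these passed.

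**Figure D4:**
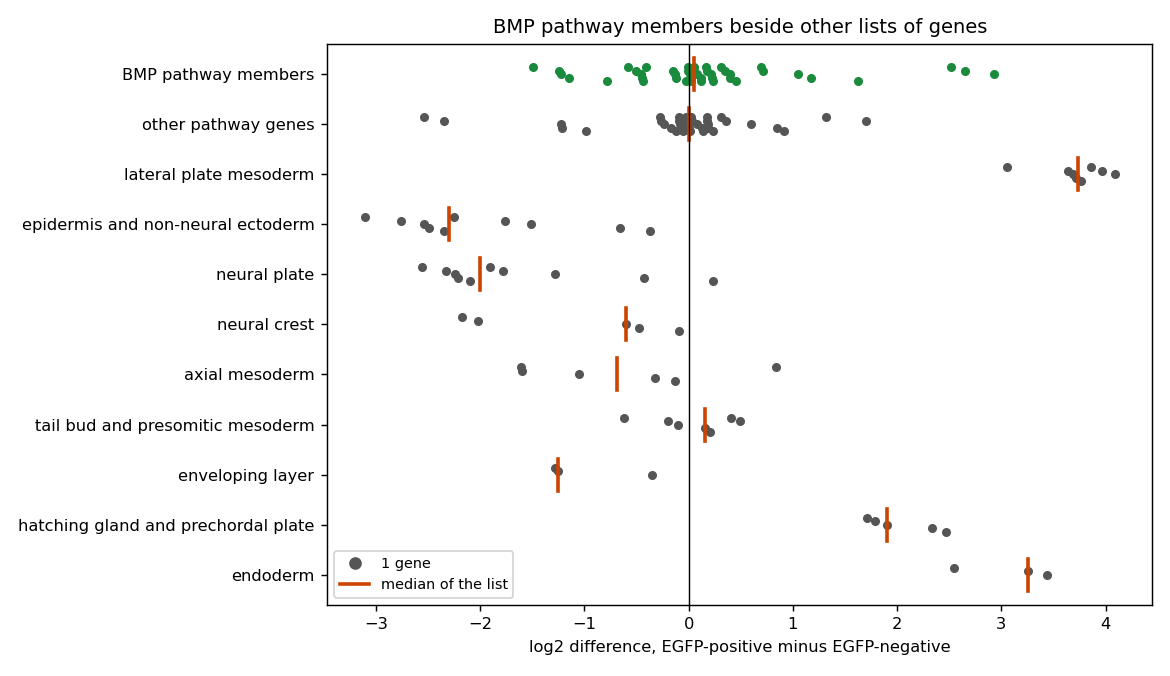
Log2 difference (x axis, EGFP-positive minus EGFP-negative) of each BMP pathway member in green and of the genes of other lists in grey, with the median of each list as a bar. The members lie on both sides of zero around a median of 0.05, between the lateral plate markers with a median of 3.74 and the ectoderm markers with a median of -2.30.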

How the data were processed

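The authors corrected the background (MAS), normalized the Affymetrix ZebGene-1_1-st arrays by RMA to the gene level in ExpressionConsole on Zv9, and deposited one log2 value for each cluster and array, used here without further scaling. From the second deposited table only symbols, positions and probe numbers were taken, not its fold, p-value and score columns, which hold the authors' own comparison. The fractions were compared (EGFP-positive minus EGFP-negative) by lmFit and eBayes of limma 3.58.1 in R 4.3.3 over all 75212 clusters without a block, two-sided, at an adjusted p under 0.09, the false discovery rate of the methods. The methods name siggenes, which was not run. Summaries used Python 3.11.15, pandas 2.3.3, numpy 2.4.6 and matplotlib 3.10.9. The cluster with the highest mean of 6 arrays stands for its gene. One gene of the list is not reported here. Older symbols were matched through RefSeq synonyms of assembly GRCz12tu, used for names only. Members, lists and tests were chosen with earlier results of these data known. Array values are given for called members, the markers *id3*, *smad7* and *msx1b*, and the brightest members of each class, and further genes were added after their values were seen. Alternatives were a replicate block, other thresholds, scalings and filters, the mean of all clusters, and leaving out arrays. The number of arrays limits the precision, and the labels' growth protocol gives 3 independent matings without saying which number belongs to which.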

Additional observations from a re-analysis of the deposited data

How the results depend on the processing

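All 14 called members kept their direction under 15 alternatives, and 12 of them kept their call under each. The replicate block, the filters and the other threshold leave the difference as it is, so direction could not change there. Leaving out 1 array cannot reverse a gene whose fractions do not overlap, as held for all 14. The calls of *vox* and *eve1* were lost with medians centred, with the replicate block, at an adjusted p under 0.05 and when most single arrays were left out (that of *eve1* also after quantile normalization again). Leaving out single arrays gave 7 to 8 members higher and 5 to 6 lower. With the replicate block 7 members were higher and 7 lower, *bmp2a* and *bmp2b* being added. The numbers were not treated as pairs, since the labels do not say which number belongs to which mating. Same-numbered arrays of the fractions deviated together with correlations of -0.03, 0.04 and 0.09. These were taken over all clusters, low signals included, so they cannot exclude a pairing. Fitting and adjusting over the 37268 clusters with a symbol alone gave 12 higher and 9 lower. Doing so over clusters above the median signal gave 10 higher and 6 lower, with 3 members left out. Since both filters leave the log2 differences as they are, only the adjusted p changed. The parts of the variance fit and of the adjustment in this were not tested. Counting genes under older symbols as well, an alternative added after the data were seen, gave 10 higher and 8 lower. Quantile normalization again lowered the median log2 difference of every role. It gave 0.20 for the Smads, -1.33 for the proteases, -0.53 for the ligands, 0.02 for the receptors, 0.23 for the targets and 0.04 for the antagonists. Only for the Smads and proteases did the shift reach the pooled SD of the role's median between arrays of a fraction. The median of all clusters moved to -0.02, and the cause was not tested. Low signals limit the values of *fstb*, *bmp5*, *id4* and the EGFP-negative level of *bmp6*.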
